A study of Rattus norvegicus with 138 samples.

Results

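The data describe 10 genes for regulators of G protein signalling (RGS proteins), Rgs2, Rgs3, Rgs4, Rgs6, Rgs7, Rgs8, Rgs9, Rgs10, Rgs16 and Rgs17, chosen by symbol from tables of 32883 genes. All 10 passed the filter on low values in every region. RNA was sequenced from bilateral brainstem punches of female spontaneously hypertensive rats (SHRs, SHR/NHsd) and normotensive Wistar-Kyoto (WKY, WKY/NHsd) rats. They held the NTS (the solitary tract nucleus, where baroreceptor afferents end) or the ventrolateral medulla in its caudal (CVLM) or its rostral part (RVLM), which relay to sympathetic outflow. WKY rats numbered 5 at 8 wk of age, 4 at 10 wk and 3 each at 12, 16 and 24 wk, SHRs 5 each at 8 and 10 wk and 6 each at the later ages, and each of the 46 rats gave 1 library per region, 138 in all. The labels name no treatment or transgene, and strain and blood pressure cannot be told apart in this design. The paper counts SHRs of 8 wk as prehypertensive and 10 to 12 wk as the onset period, and it recorded blood pressure at 12 and 24 wk.

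RGS proteins bind the active, GTP-bound alpha subunits of heterotrimeric G proteins and speed up the hydrolysis of GTP, which ends signalling from the receptor. Members of the R4 subfamily (Rgs2, Rgs3, Rgs4, Rgs8 and Rgs16) are mostly small proteins around the RGS domain, those of the R7 subfamily (Rgs6, Rgs7 and Rgs9) work in a complex with the G protein beta subunit Gnb5, Rgs10 belongs to the R12 subfamily and Rgs17 to the RZ subfamily. In cardiovascular brainstem nuclei, receptors for noradrenaline, angiotensin, opioids and GABA act through these G proteins. Rgs2 is known for limiting Gq signals, and mice that lack it are hypertensive.

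Rgs2, Rgs8 and Rgs16 lie on rat chromosome 13, where Rgs8 and Rgs16 are next to each other in the order of protein-coding genes. Rgs4 and Rgs7, which were not called between strains, lie on that chromosome as well. The upstream sequences of Rgs2, Rgs8 and Rgs16 are shown because these genes gave most of the strain differences described below. They are the 250 bases before the transcript start in RefSeq (build GRCr8, not the build rn6 of the counts), read 5′ to 3′ on the gene's strand, with matches to CCAAT and GGGCGG on either strand in capitals. Rgs2 is at chr13:58352667-58352916 on the minus strand, Rgs8 at chr13:68366648-68366897 and Rgs16 at chr13:68437870-68438119, both on the plus strand.
Rgs2: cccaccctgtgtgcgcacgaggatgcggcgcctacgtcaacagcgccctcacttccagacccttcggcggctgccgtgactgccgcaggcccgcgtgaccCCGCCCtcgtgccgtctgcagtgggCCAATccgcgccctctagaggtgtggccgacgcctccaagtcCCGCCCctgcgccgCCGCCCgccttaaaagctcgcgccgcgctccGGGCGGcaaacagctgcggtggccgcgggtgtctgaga
Rgs8: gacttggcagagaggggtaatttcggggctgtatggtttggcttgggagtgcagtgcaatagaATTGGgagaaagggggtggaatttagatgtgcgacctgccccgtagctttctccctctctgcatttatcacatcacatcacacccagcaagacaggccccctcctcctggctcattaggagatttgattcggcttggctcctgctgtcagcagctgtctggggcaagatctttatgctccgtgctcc
Rgs16: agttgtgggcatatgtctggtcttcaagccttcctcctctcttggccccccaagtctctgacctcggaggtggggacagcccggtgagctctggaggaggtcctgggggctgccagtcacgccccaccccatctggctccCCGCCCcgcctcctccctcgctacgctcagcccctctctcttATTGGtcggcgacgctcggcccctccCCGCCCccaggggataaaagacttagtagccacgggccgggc
The Rgs2 window held 4 matches to GGGCGG and 1 to CCAAT, the Rgs16 window 2 and 1, and the Rgs8 window none and 1. Of 33469 windows of this length, 30.5% held GGGCGG and 34% held CCAAT. The GC content was 72.4% for Rgs2, 66.8% for Rgs16 and 53.6% for Rgs8. Matches are a description of letters, and binding was not measured.

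Counts assigned to genes ran from 5.90 to 17.9 M per library, with a median of 10.1 M. Names of libraries end in the number 1 or 2, whose meaning is not given. The number 2 marks 14 rats, namely all rats of 10 wk, 3 of the 5 WKY rats of 8 wk, and 1 SHR each at 12 and 24 wk, and their libraries were deeper (9.49 to 17.9 M) than those of number 1 (5.90 to 11.9 M). In 2 CVLM libraries, 1 of each strain at 8 wk, another label gives 10 wk. Th, the rate-limiting enzyme of catecholamine synthesis, had medians of 135, 138 and 53.3 CPM (counts per 1 M counts of a library, after TMM scaling) over NTS, CVLM and RVLM punches. Pnmt, the enzyme of adrenaline synthesis, ran from 0.910 to 67.1 CPM in the RVLM. The 5 motor neuron markers summed to 680 to 2630 CPM in the RVLM against 60.9 to 261 in the CVLM, and the 4 choroid plexus markers reached 4367 CPM in 1 or more WKY rats in the NTS against at most 9.50 in SHRs.

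The first comparison asked how the strains differed on average over the 5 ages. Rgs8 was higher in SHRs in all 3 regions, Rgs16 was lower in the CVLM and RVLM, Rgs2 was lower in the RVLM and Rgs3 was lower in the CVLM. In the NTS 1 of 10 members was called (adjusted p under 0.05), in the CVLM 3 and in the RVLM 3, where 11.2%, 12.3% and 10.8% of all genes tested were called. The NTS count is close to that background and is not a result about the members. In these bulk samples, fewer cells of a type and less RNA per cell cannot be told apart. Of markers of other cells, those of oligodendrocytes were called lower in SHRs for 1, 4 and 3 of 6 in the NTS, CVLM and RVLM. Their summed level ran from 33163 to 54339 CPM in SHRs and 34908 to 67912 in WKY rats in the RVLM. Its median was 48535 CPM in SHRs and 55201 in WKY rats in the CVLM. In the NTS it went the other way, with 27062 in SHRs and 25893 in WKY rats. Microglia markers were lower for 1, 2 and 1 of 6, choroid plexus markers were lower for 3 of 4 in the NTS and higher for 1 of 2 tested in the CVLM, and 1 of 5 astrocyte and 1 of 4 pericyte and smooth muscle markers were higher in the RVLM. The part of these markers in the results was not tested. None of the 6 neuron markers was called in any region. Over the 15 pairs of region and age, Rgs8 was higher in SHRs in 14, and 10.1% of all genes had 1 sign in at least 14. Rgs16 was lower in 13 and Rgs2 lower in 11, counts for which no share over all genes was computed. The regions share rats, so the 15 values are not independent.

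**Figure D1:**
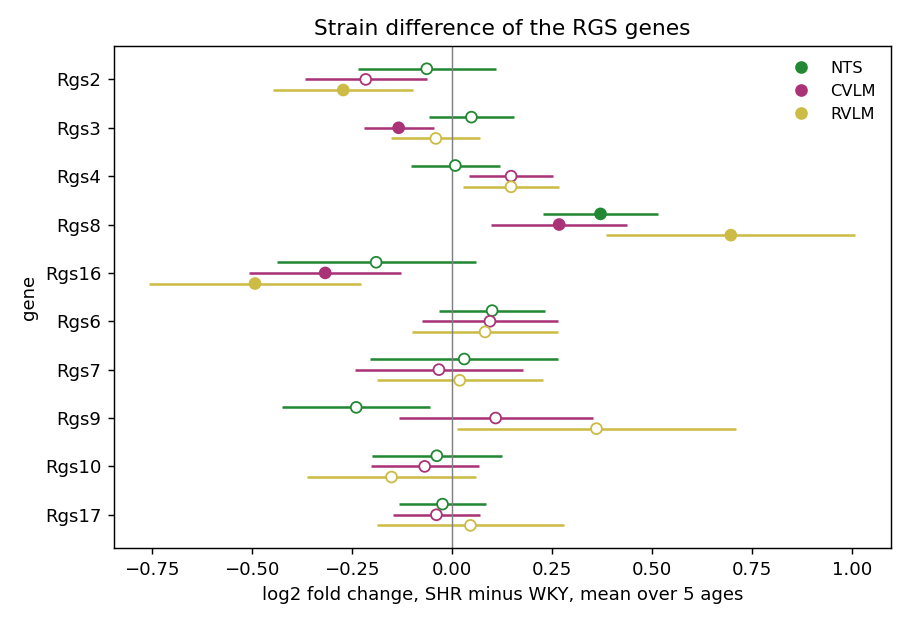
Log2 fold change of each RGS gene (vertical axis) between SHRs and WKY rats, averaged over 5 ages, by region (horizontal axis, SHR minus WKY). Points are estimates, bars 95% intervals, and filled points passed an adjusted p of 0.05 in edgeR. Rgs8 lies right of 0 in all 3 regions and Rgs16 left of it.

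Rgs8, an R4 member found mainly in neurons that acts on Gi and Gq class alpha subunits, was the member with strain differences in every region. In the NTS at 8 wk its level was 36, 30.9, 39.2, 46.0 and 38.5 CPM in SHRs and 23.7, 26.7, 28.4, 30.6 and 24.8 CPM in WKY rats. The groups did not overlap there, though the adjusted p of that age alone was 0.0533 (edgeR's quasi-likelihood test with Benjamini-Hochberg adjustment). At 16 wk SHRs ran from 24.0 to 33.9 CPM with a median of 25.4 and WKY rats were at 25.0, 27.1 and 28.6 CPM, so that the groups overlapped fully. Over all ages the log2 fold change in the NTS was 0.37 (SE 0.07, 1.29-fold, adjusted p = 0.000237), and it ranged from -0.02 to 0.51 over the ages. It stayed called in all 46 fits that left out 1 rat.

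In the RVLM, where its level was lower, Rgs8 at 8 wk was 6.87, 15.7, 10.6, 22.3 and 11.4 CPM in SHRs and 7.31, 5.05, 5.30, 5.26 and 2.99 CPM in WKY rats. A single SHR fell among the WKY rats. The log2 fold change was 1.37 (SE 0.33, adjusted p = 0.0067 in edgeR), where 9.78% of all genes were called. Of the WKY rats of that age the libraries of number 1 had a mean of 6.18 CPM (n = 2) and those of number 2 of 4.52 CPM (n = 3), against 13.4 CPM in the SHRs, which were all of number 1 (n = 5). With SHRs and WKY rats of number 1 only, the log2 fold change at 8 wk was 1.08 with an adjusted p of 0.412, and with that number as a term it was 1.18 with an adjusted p of 0.0853. Over all ages it was 0.70 (SE 0.16, 1.62-fold, adjusted p = 0.00154), higher at all 5 ages (1 sign at all ages held for 20% of genes), and 0.68 (adjusted p = 0.00201) with the number as a term. Without 8 wk the mean was 0.53 with an adjusted p of 0.0629.

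In the CVLM at 8 wk Rgs8 was 34.5, 35.3, 33.8, 33.1 and 29.1 CPM in SHRs and 26.4, 21.4, 22, 22.1 and 18.9 CPM in WKY rats. Every SHR was above every WKY rat, and the log2 fold change was 0.58 (SE 0.18, adjusted p = 0.0349 in edgeR), where 7.64% of all genes were called. Leaving out 1 rat of that age (SHR replicate 1, 2, 3 or 4 or WKY replicate 3, 4 or 5) gave an adjusted p from 0.0553 to 0.108, and leaving out the 2 libraries of conflicting age gave 0.0932. With the library number as a term the log2 fold change was 0.60 (adjusted p = 0.129), and with libraries of 1 number 0.49 (adjusted p = 0.76). Over all ages it was 0.27 (SE 0.09, adjusted p = 0.0318), called in 40 of 46 fits without 1 rat. Without WKY replicate 1 of 12 wk the mean was 0.22 with an adjusted p of 0.0893. Leaving out 8 wk gave 0.19 (adjusted p = 0.234), 24 wk 0.27 (adjusted p = 0.0732) and 10 wk 0.29 (adjusted p = 0.0511), and libraries of 1 number per age gave 0.24 (adjusted p = 0.124). The strain effect on Rgs8 did not pass the test of a difference between regions, with -0.31 (SE 0.15, adjusted p = 0.369) for the NTS against the RVLM and -0.38 (SE 0.15, adjusted p = 0.606) for the CVLM against the RVLM.

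**Figure D2:**
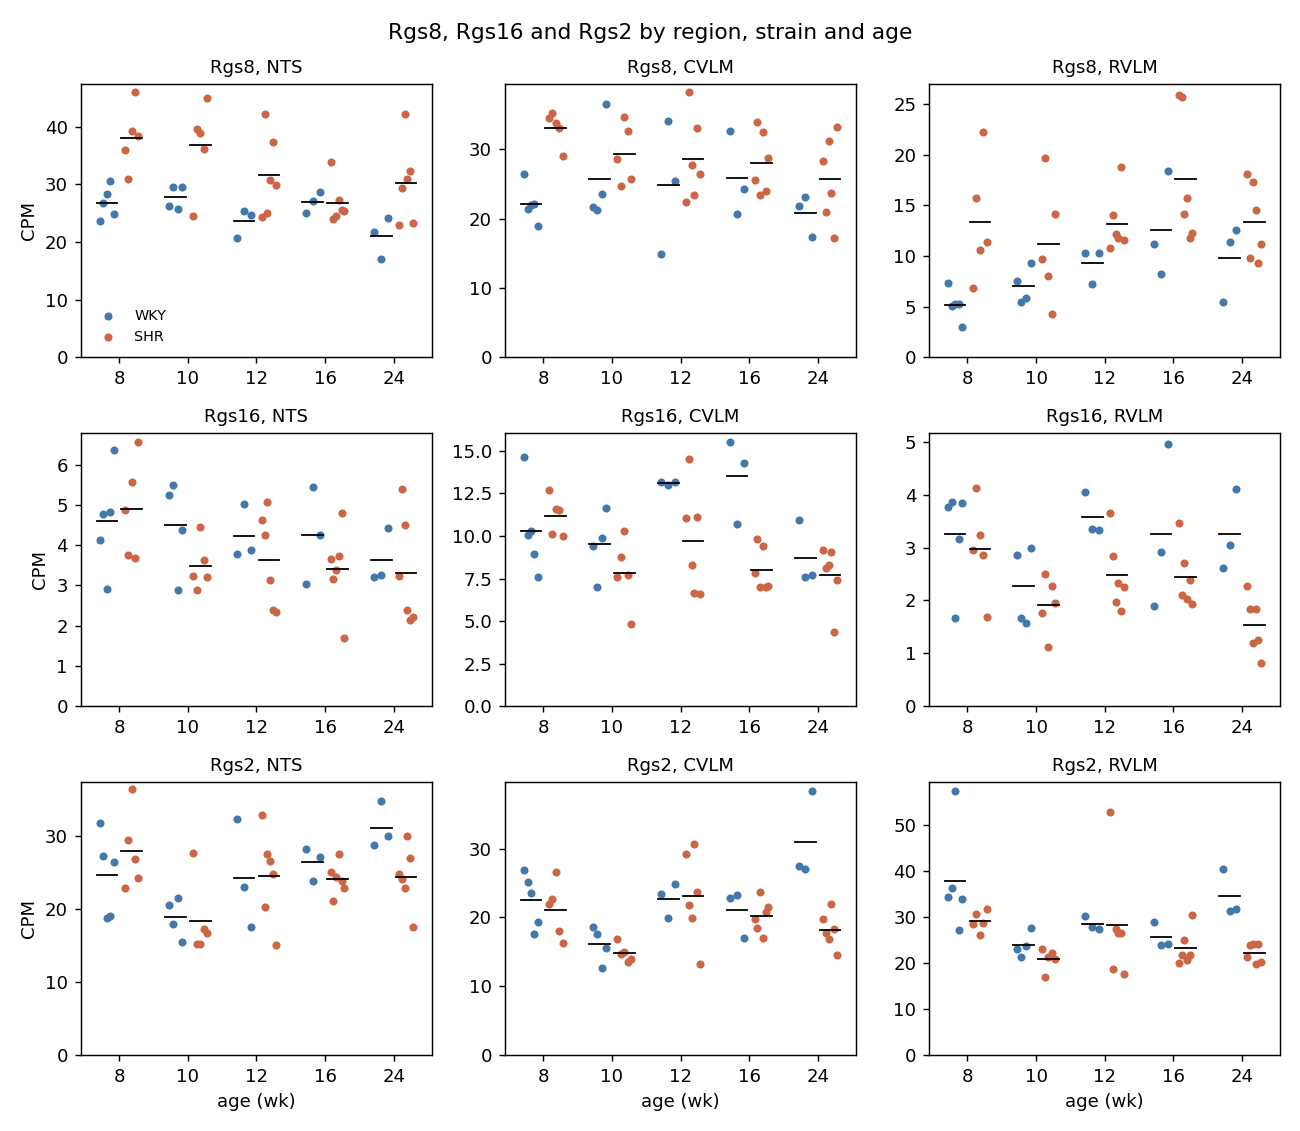
CPM of Rgs8, Rgs16 and Rgs2 (top to bottom) in the NTS, CVLM and RVLM (left to right) by age in wk on the horizontal axis. Points are rats, WKY blue and SHR orange, and bars are group means. Rgs8 of SHRs lies above that of WKY rats in 14 of 15 pairs of region and age by fold change, and Rgs16 below in 13 of 15.

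Rgs16, an R4 member whose RNA is induced by many stimuli, was low in these nuclei and moved the other way from its neighbour Rgs8. In the RVLM at 24 wk it was 2.61, 3.05 and 4.11 CPM in WKY rats and ran from 0.819 to 2.28 CPM with a median of 1.54 in SHRs. No SHR reached the lowest WKY rat, yet the log2 fold change of -1.11 (SE 0.32) had an adjusted p of 0.0511 (edgeR). Over all ages it was -0.49 in the RVLM (SE 0.13, 1.41-fold lower in SHRs, adjusted p = 0.0101), lower at all 5 ages and called in 46 of 46 fits without 1 rat. Without 24 wk it was -0.34 with an adjusted p of 0.196, so the call depends on that age. It was also lost with the replicate number within an age as a block (-0.37, adjusted p = 0.256). Libraries in the RVLM held 12 to 59 counts of this gene.

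In the CVLM at 16 wk Rgs16 was 15.5, 10.7 and 14.3 CPM in WKY rats and ran from 6.98 to 9.82 CPM with a median of 7.43 in SHRs. The groups did not overlap, and the log2 fold change was -0.76 (SE 0.22, adjusted p = 0.0556 in edgeR). At 8 wk SHRs were at 12.7, 10.1, 11.6, 11.5 and 10.0 CPM, within the range of WKY rats (14.7, 10.1, 10.3, 8.92 and 7.59 CPM). Over all ages it was -0.32 (SE 0.10, adjusted p = 0.0218), and without 16 wk -0.21 with an adjusted p of 0.266. Without WKY replicate 1 of 24 wk it was -0.26 (adjusted p = 0.0965) and without WKY replicate 1 of 16 wk -0.29 (adjusted p = 0.0509). Without 12 wk it was -0.28 (adjusted p = 0.0914), and with the replicate number as a block -0.21 (adjusted p = 0.192). In the NTS it was -0.19 (SE 0.13, adjusted p = 0.442).

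Npl, the protein-coding gene next to Rgs8 in the GRCr8 order, was at -0.30 (SE 0.09, adjusted p = 0.0244 in edgeR) in the NTS and at 0.07 and 0.05 in the CVLM and RVLM, where it was not called. It was looked up after the members' values were seen.

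Rgs2, which limits Gq signalling, was lower in SHRs at 24 wk in the CVLM. WKY rats were at 27.5, 27.1 and 38.4 CPM and SHRs ran from 14.5 to 22 CPM with a median of 18. The groups did not overlap, as held for 11.7% of all genes at that age. The log2 fold change was -0.80 (SE 0.18, adjusted p = 0.00256 in edgeR), in a comparison that called 7.13% of all genes. Without WKY replicate 3 it was -0.62 with an adjusted p of 0.0888. At the other ages the CVLM groups overlapped, and the mean over ages of -0.22 (SE 0.08, adjusted p = 0.0636) was not called.

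In the RVLM the mean of Rgs2 over ages was -0.27 (SE 0.09, 1.21-fold lower in SHRs, adjusted p = 0.0407 in edgeR). At 24 wk WKY rats were at 40.5, 31.4 and 31.7 CPM and SHRs ran from 19.9 to 24.1 CPM with a median of 22.6. The groups did not overlap, but that age alone was not called (-0.63, SE 0.20, adjusted p = 0.104). Libraries of WKY replicate 3 at 8 wk (57.4 CPM) and SHR replicate 1 at 12 wk (52.8 CPM) stood above all others, and both were also the highest in Rgs10. The mean was called in 34 of 46 fits without 1 rat. Without WKY replicate 3 of 8 wk it was -0.24 (adjusted p = 0.0587), without SHR replicate 1 of 12 wk -0.33 (adjusted p = 0.000717), and without 24 wk -0.18 (adjusted p = 0.356). Leaving out 8 wk gave -0.24 (adjusted p = 0.172) and leaving out 10 wk -0.29 (adjusted p = 0.0633). Libraries of 1 number per age gave -0.24 (adjusted p = 0.0652), and the replicate number as a block gave -0.24 (adjusted p = 0.187). The mean stayed called in 7 of 12 other settings.

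Rgs17, an RZ member that acts on Gi, Go and Gz, and Rgs10, a small R12 member best known in microglia, joined Rgs2 in the CVLM at 24 wk, where 3 of 10 members were lower in SHRs against 4.92% of all genes. That count depends on 1 of the 3 WKY rats. Without WKY replicate 3, Rgs2 and Rgs10 were no longer called (adjusted p = 0.0888 and 0.181 in edgeR). Genes called in either direction then fell from 956 to 361. Rgs17 was 98.2, 114 and 104 CPM in WKY rats and ran from 62.0 to 85.4 CPM with a median of 67.9 in SHRs (-0.61, SE 0.12, adjusted p = 0.00123 in edgeR). The groups did not overlap, and the call held in 46 of 46 fits without 1 rat. Rgs10 was 42.3, 34.3 and 42.0 CPM in WKY rats and ran from 23.2 to 42.2 CPM with a median of 26.4 in SHRs, so that 1 SHR lay among the WKY rats (-0.51, SE 0.16, adjusted p = 0.0377), and it was called in 37 of 46 such fits, with an adjusted p of up to 0.218. In the same groups the motor neuron markers summed to 60.9 to 112 CPM in WKY rats and 130 to 207 in SHRs, and the microglia markers to 203 to 217 and 195 to 229. Of the 5 motor neuron markers 0 were called in either direction in that comparison. Of the microglia, neuron and oligodendrocyte markers 1 of 6 each was called lower in SHRs in that comparison. Called higher were 1 of 4 pericyte and smooth muscle markers and 1 of 2 tested choroid plexus markers. The 6 neuron markers had median sums of 9031 CPM in WKY rats and 10039 in SHRs. The part of these markers in the comparison was not tested.

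Levels at 24 wk were also compared with those at 8 wk within a strain. From 8 to 24 wk Rgs17 rose in the CVLM of WKY rats by 0.73 on the log2 scale (SE 0.13, adjusted p = 0.000822 in edgeR) and Rgs10 by 0.56 (SE 0.16, adjusted p = 0.0188), where 13.7% of all genes were called. No member was called between 24 and 8 wk in SHRs, where 0.232%, 0.649% and 0.358% of genes were called in the NTS, CVLM and RVLM, or in WKY rats in the NTS (0.464%) or RVLM (0.179%). The 60 tests had 17 at an unadjusted p under 0.05. Rgs10 in WKY rats was at 0.49 (adjusted p = 0.103) without replicate 1 and 0.52 (adjusted p = 0.0975) without replicate 3 of 24 wk. At 24 wk these rats are all of number 1 and at 8 wk 3 of 5 are of number 2. Rgs10 was at 0.45 (adjusted p = 0.179) with the number as a term, 0.52 (adjusted p = 0.28) with 1 number per age and 0.53 (adjusted p = 0.052) without the libraries of conflicting age, while Rgs17 stayed called in these fits of the number (0.65, adjusted p = 0.0163, and 0.77, adjusted p = 0.0322). Over all genes, the number called in the CVLM of WKY rats fell from 1831 to 372 without that replicate 3.

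Over single ages, 5 of 150 member values were called, 2 higher and 3 lower in SHRs, against 3.87% of all values (NTS 0 of 50 against 3.5%, CVLM 4 against 4.57%, RVLM 1 against 3.53%), and 26 had an unadjusted p under 0.05. In 10 of 150 the strains did not overlap, 3 higher and 7 lower in SHRs, where 6.19% of all values did not overlap, so these counts are near the background. No member passed the test of a strain effect that differs between ages in edgeR, where 4 of 30 had an unadjusted p under 0.05 and DESeq2 called 1. Of all genes 0.0145%, 0.0224% and 0.00746% passed it in the NTS, CVLM and RVLM. Rgs3 was lower in the CVLM over all ages by a small amount (-0.13, SE 0.04, adjusted p = 0.0418 in edgeR), called in 22 of 46 fits without 1 rat, with an adjusted p above 0.05 under 9 of 13 other settings.

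Rgs4, an abundant R4 member of neurons that acts on Gi and Gq, was at 0.15 (SE 0.05, adjusted p = 0.0623 in edgeR) in the CVLM and 0.15 (SE 0.06, adjusted p = 0.13) in the RVLM. Rgs6 and Rgs7 were not called in any region, with 95% intervals of the mean log2 fold change within -0.10 to 0.27 for Rgs6 and -0.24 to 0.27 for Rgs7. Rgs9, an R7 member known from the striatum and the retina, was at -0.24 (SE 0.09, adjusted p = 0.105) in the NTS and 0.36 (SE 0.18, adjusted p = 0.228) in the RVLM. Its strain effect differed between these regions by -0.63 (SE 0.18, adjusted p = 0.0482), where 1.82% of genes were called (0.449% for the NTS against the CVLM and 0.32% for the CVLM against the RVLM), and this was the single member called among 30 tests of that kind, of which 8 had an unadjusted p under 0.05. Leaving out all rats of replicate number 1, 2, 3 or 5 in turn gave adjusted p-values from 0.0934 to 0.391.

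Regions of the same rat were compared next, averaged over strains and ages. Of the 10 members, 9 differed for NTS against RVLM, 6 for NTS against CVLM and 9 for CVLM against RVLM, where 72.7%, 65.9% and 54% of all genes were called, so a call by itself says little and the sizes matter more. Rgs9 fell from the NTS through the CVLM to the RVLM, Rgs8 and Rgs17 were low in the RVLM, Rgs16 was high in the CVLM and Rgs4 low there, and Rgs6 was low in the NTS. Rgs2, Rgs3, Rgs7 and Rgs10 varied less, with differences of at most 0.38 on the log2 scale.

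**Figure D3:**
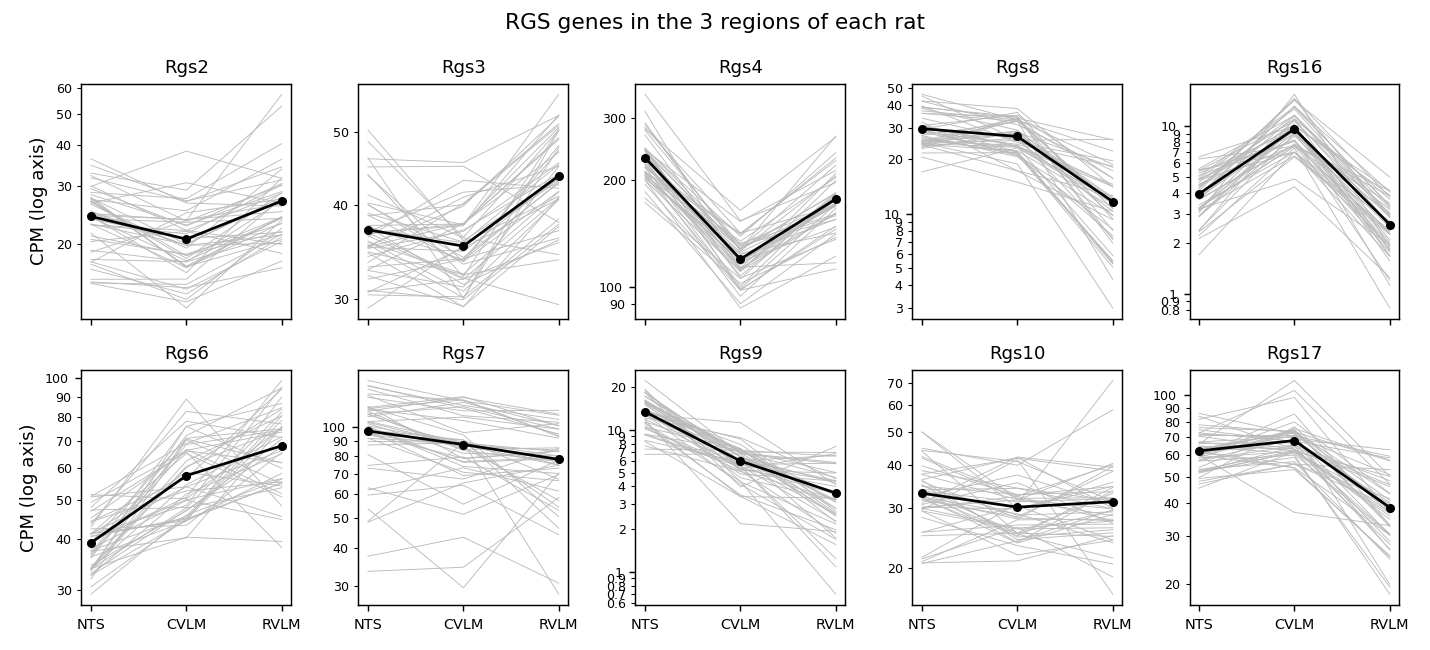
CPM of each RGS gene in the 3 regions of each rat, on a log axis of its own per gene. Grey lines are the 46 rats and the black line joins the means. Rgs9 falls from NTS to RVLM, and Rgs16 peaks in the CVLM.

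Rgs9 ran from 6.72 to 22.3 CPM in the NTS (median 13.2), 2.19 to 11.2 in the CVLM (median 6.09) and 0.698 to 7.65 in the RVLM (median 3.24). It was higher in the NTS than the RVLM in 46 of 46 rats, by 2.02 on the log2 scale (SE 0.09, 4.05-fold, adjusted p = 1.68e-33 in edgeR). Rgs16 ran from 4.35 to 15.5 CPM in the CVLM (median 9.41) against 0.819 to 4.97 in the RVLM (median 2.44), higher in 46 of 46 rats and 3.77-fold (log2 1.91, SE 0.08). It was 2.48-fold higher in the CVLM than the NTS, also in 46 of 46. Rgs8 was 2.72-fold higher in the NTS and 2.50-fold higher in the CVLM than in the RVLM, each in 45 of 46 rats, while the NTS and CVLM did not differ beyond their spread (0.13, 95% interval -0.01 to 0.26).

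Rgs4 was 1.95-fold higher in the NTS than the CVLM in 46 of 46 rats, and the RVLM lay between (1.46-fold above the CVLM, 46 of 46). Rgs17 was 1.81-fold higher in the CVLM than the RVLM in 46 of 46 rats. Rgs6 was 1.72-fold higher in the RVLM than the NTS in 44 of 46. For Rgs7, the difference of the CVLM over the RVLM (0.16, adjusted p = 0.0169 in edgeR) was 0.04 (adjusted p = 0.585) without the rats of replicate number 3. These punches also differed in cell markers, since the 6 neuron markers had median sums of 6784 and 6585 CPM in the NTS of WKY rats and SHRs and 24974 and 21045 in the RVLM. Marker by marker the difference was smaller, with a median of -0.82 on the log2 scale (NTS minus RVLM). Of the 6 markers, 5 were called higher in the RVLM and 1 in the NTS. Snap25 had medians of 1879 CPM in the NTS and 2473 in the RVLM.

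Some members had an extreme mean at 10 wk, the age at which all libraries have the number 2. Rgs7 had its highest age mean at 10 wk in 6 of 6 pairs of region and strain, and Rgs2, Rgs10 and Rgs17 their lowest in 6 of 6. Rgs4 had its highest mean there in 5 of 6, and Rgs3 and Rgs9 their lowest in 5 of 6 each. Rgs8 and Rgs16 had their lowest mean there in 1 of 6 each and Rgs6 its highest in 3 of 6. Age and number cannot be told apart at 10 wk. Rgs7 of the SHR of number 2 at 12 and 24 wk was above all SHRs of number 1 of its age in 6 of 6 comparisons, and Rgs2 was below them in 5 of 6. Rgs4 was above them in 5 of 6, Rgs10 and Rgs17 below in 4 of 6, and Rgs3 and Rgs9 below in 3 of 6. At 8 wk, the WKY mean of Rgs7 was higher in number 2 (n = 3) than in number 1 (n = 2) in 3 of 3 regions, in the CVLM with 112 against 64.2 CPM, and SHRs, all of number 1, had 60.4 CPM there. In these WKY rats Rgs4 was also higher in number 2 in 3 of 3 regions, and Rgs3 and Rgs9 were higher in 0 of 3. Rgs2, Rgs10 and Rgs17 did not follow their direction of 10 wk in every region. Number 2 was the higher for Rgs17 in the CVLM (67.5 against 63.6 CPM) and RVLM (37.7 against 35.5 CPM), for Rgs2 in the RVLM (39.4 against 35.4 CPM) and for Rgs10 in the RVLM (41.1 against 35.0 CPM). Rgs17 of WKY rats in the CVLM was 66.0 ± 9.66 CPM at 16 wk and 105 ± 7.82 CPM at 24 wk (SD, n = 3 each), all of number 1.

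**Figure D4:**
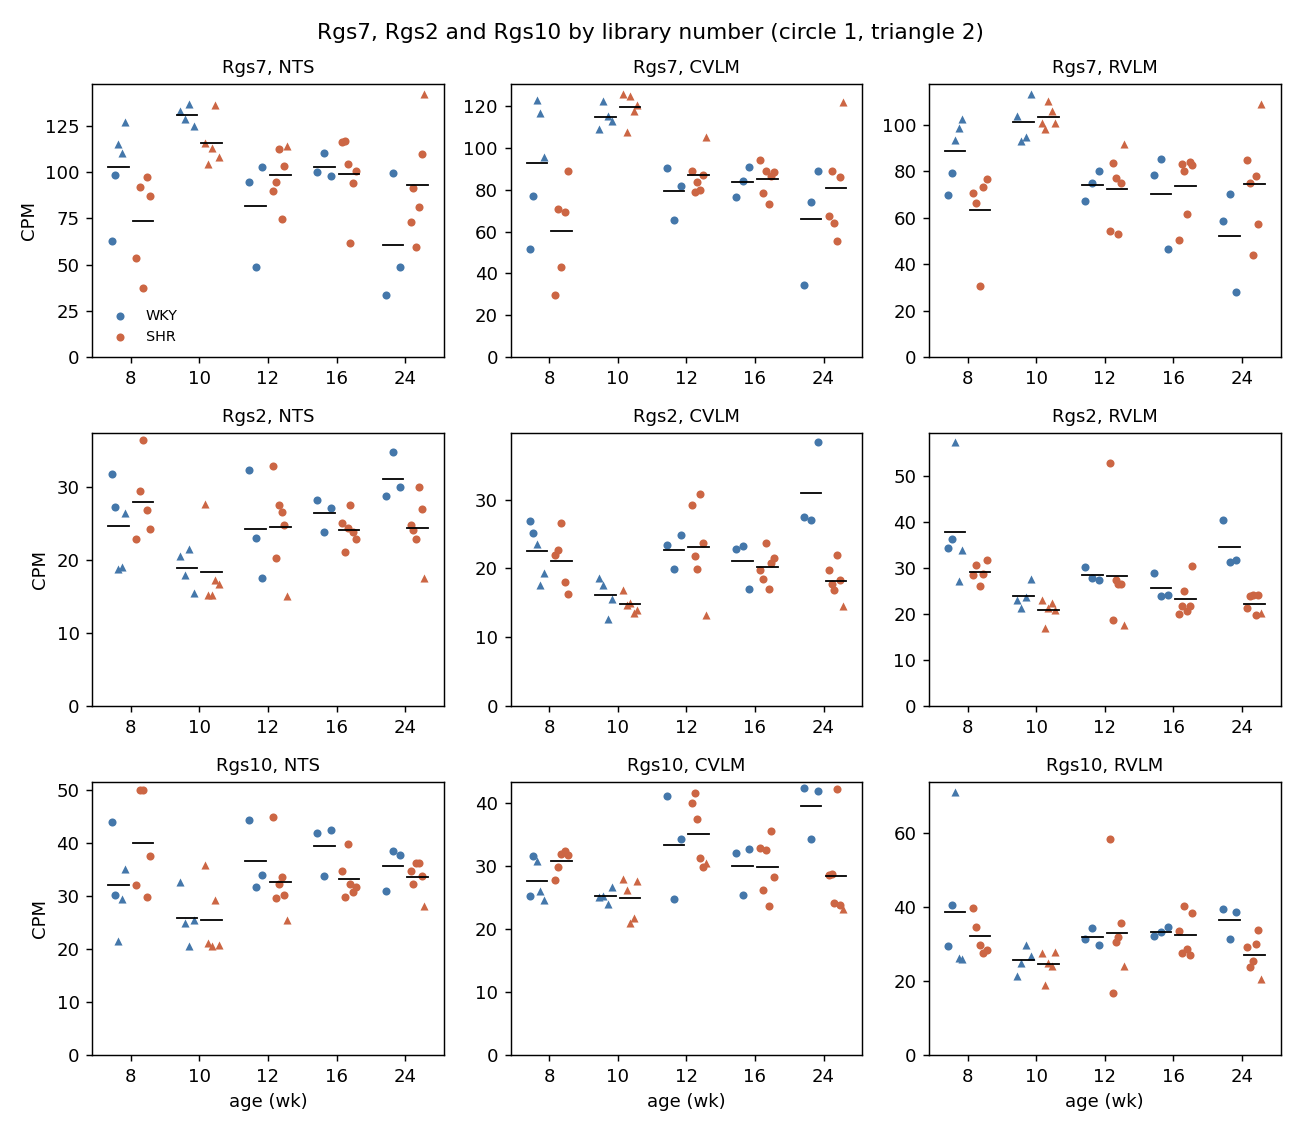
CPM of Rgs7, Rgs2 and Rgs10 (top to bottom) in the 3 regions (left to right) by age in wk. Circles are libraries of number 1 and triangles of number 2, WKY blue and SHR orange, and bars are group means. At 12 and 24 wk the SHR triangle is the highest of its group for Rgs7 in 6 of 6 panels and ages, and the lowest for Rgs2 in 5 of 6.

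Across the means of the 30 groups of region, strain and age, the genes most like each member, of 13115 compared, were Arg1, Ncald and Nrsn1 for Rgs8 (Pearson r = 0.97, 0.97 and 0.95) and Wnt3, Klhdc8a and Cish for Rgs16 (0.94, 0.93 and 0.93). For Rgs9 they were Wdr6, Stx1a and Rsph9 (0.98 each) and for Rgs7 Ei24, Khdrbs1 and Tmpo (0.98, 0.97 and 0.97). Atp6v0e1, Lrrc42 and Hikeshi were most like Rgs2 (0.93, 0.91 and 0.91), Acss3, Ldb2 and Atp13a4 most like Rgs4 (0.92 each), and Ttyh1, Tpst2 and Dhrs4 most like Rgs3 (0.86, 0.84 and 0.84). Tmem229b, Vamp1 and Fam160b2 followed Rgs6 (0.95, 0.95 and 0.93), Gabarap, Rpl21 and Rps27 followed Rgs10 (0.96, 0.94 and 0.94), and Plcxd3, Abracl and Penk followed Rgs17 (0.94, 0.93 and 0.93). The groups share rats, regions and library numbers, so these are descriptions.

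Other genes of the pathway were counted with the same test of the strain mean, by which 11.2%, 12.3% and 10.8% of all genes were called in the NTS, CVLM and RVLM. Of the other RGS genes, 3 of 7 tested were higher and 1 lower in SHRs in the NTS, 2 and 1 of 6 in the CVLM and 4 and 1 of 6 in the RVLM. Their median log2 fold change in the RVLM was 0.28, against 0.01 over all genes. It was smaller in the CVLM (0.16, against -0.003) and in the NTS (0.06, against 0.01). Rgs22 was at 1.56 (SE 0.18) in the RVLM, Rgs1 at 0.93 (SE 0.20) and Rgs19, an RZ relative of Rgs17, at -0.61 (SE 0.06, adjusted p = 1.04e-11 in edgeR). Rgs19 was lower and Rgs22 and Rgs1 higher in all 3 regions, Rgs1 at a low level of at most 2.12 CPM on average.

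Of 13 genes for G protein alpha subunits (14 entries, since Gnas has 2), 1 was called in each region, no more than the share over all genes. This was Gna14, a Gq class subunit, higher in SHRs by 0.57 in the RVLM (SE 0.10, adjusted p = 3.39e-05 in edgeR), 0.46 in the CVLM and 0.41 in the NTS. Among beta and gamma subunits none was called in the NTS, 2 of 12 were lower in the CVLM and 1 of 12 in the RVLM, near the share over all genes, with Gng11 at -0.41 (SE 0.13) in the RVLM. Of 15 tested effectors of Gi/o and Gq, 2 were called in the NTS and 2 in the CVLM, again near that share. The adenylyl cyclase Adcy5 was lower and Adcy6 higher in the NTS (-0.29 and 0.48) and the CVLM (-0.28 and 0.43), and none was called in the RVLM. None of the 2 tested R7 partners or the 12 tested other regulators was called in any region.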

How the data were processed

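RNA of 138 punches (3 regions of 46 rats) was measured by RNA-seq. The authors deposited expected counts per gene from RSEM (STAR alignment, rat genome rn6), not normalized. Their methods name a batch adjustment with ComBat_seq, and whether the tables hold it is not stated. Of all values 4.95% were not whole, and expected counts were rounded here. Groups came from the sample labels, and the 2 CVLM libraries with conflicting ages were placed at 8 wk by title. All columns were used.

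Genes entered the tests of a region if any library reached an rlog value of 3.5 (13793 genes in the NTS, 13408 in the CVLM, 13411 in the RVLM, 14043 in any). With R 4.3.3 and edgeR 4.0.16, TMM-normalized counts were fitted per region with 10 groups of strain and age (glmQLFit and glmQLFTest, robust, two-sided), and p-values were adjusted by Benjamini-Hochberg over all genes of a comparison. Contrasts were the strain at each age, its mean over ages, strain by age, and 24 against 8 wk. Regions were compared in 1 fit over all libraries with the rat as a block. SEs were derived from the F statistic. CPM used TMM factors over all libraries. Depth was 5.90 to 17.9 M counts per library, which limits genes such as Rgs16 and Rgs9. The labels name single rats, 1 per library.

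Alternatives were DESeq2 (1.42.0), its size factors, limma voom (3.58.1), no filter, a replicate block, library number, each age alone, and leaving out rats, conflicting libraries or ages. The last, and 1 number per age, were added after seeing the data. Fits of regions without a replicate number kept the dispersions of all rats. Rats of both strains with 1 replicate number were compared within an age, and correlations of deviations ran from -0.33 to 0.55 over 54 pairs. That range does not settle whether the numbers pair the rats, and the main fits took them as unpaired. Of 270 pairs of libraries within a group none looked repeated (lowest chi-square per gene 4.80). The fits were tested on simulated data. All 10 members were named, with pathway genes called in the strain mean and the 3 most alike genes by Pearson r. A few items are not reported here. The members and lists were chosen with earlier results of these data known.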

Additional observations from a re-analysis of the deposited data

Results flagged for a closer look

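Of 210 groups of 4 to 6 rats, 11 held a rat whose gap to the nearest other was wide against the range of the group (Dixon's limit), and chance gives about 1 in 20. In the NTS these were an SHR of 10 wk with 27.7 CPM of Rgs2 (others 15.2 to 17.3), a WKY rat of 8 wk with 33.1 CPM of Rgs3 (36.3 to 37.5), an SHR of 24 wk with 349 CPM of Rgs4 (204 to 238) and an SHR of 16 wk with 33.9 CPM of Rgs8 (24.0 to 27.3). In the CVLM they were a WKY rat of 10 wk with 36.5 CPM of Rgs8 (21.2 to 23.6) and SHRs of 24 wk with 4.35 CPM of Rgs16 (7.41 to 9.17) and 42.2 CPM of Rgs10 (23.2 to 28.8). In the RVLM they were an SHR of 12 wk with 52.8 CPM of Rgs2 (17.7 to 27.4), SHRs of 8 wk with 93.9 CPM of Rgs6 (61.7 to 70.6) and 30.6 CPM of Rgs7 (66.5 to 76.9), and an SHR of 16 wk with 86.5 CPM of Rgs6 (39.5 to 56.4).

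The strain effect on Rgs9 differed between the NTS and the RVLM by -0.63 on the log2 scale (adjusted p = 0.0482, edgeR's quasi-likelihood test). The adjusted p was 0.0766 with no filter and 0.0874 without the rats of conflicting age in edgeR, and 0.0859 in limma voom. It stayed called in 2 of 6 fits that left out a replicate number. The strain difference of Rgs9 was not called in either region alone.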

How the results depend on the processing

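Of 245 other settings over 39 single values, 201 kept the direction and the side of the threshold, 44 kept the direction but were no longer called, and 0 reversed. Among the region differences, only Rgs10 for the NTS against the CVLM lost its call in these settings. The other losses fell on strain and age values and on the strain effect of Rgs9 between regions. The total therefore does not describe the strain results alone. Over all ages, Rgs8 in the NTS kept its call in 12 of 12 settings and Rgs3 in the CVLM in 4 of 13. Members called at single ages were 0, 4 and 1 in the NTS, CVLM and RVLM. In the NTS, DESeq2 and its size factors gave 1. In the CVLM, no filter or libraries of 1 number per age gave 2, and an adjusted p of at most 0.01 with a log2 fold change of at least 1 gave 0. In the RVLM, DESeq2, its size factors and limma voom gave 2, and the number as a term or libraries of 1 number gave 0. For the mean over ages, the 3 calls in the CVLM became 5 with the number as a term and 1 without 8, 10 or 16 wk, and the 3 in the RVLM became 1 without 24 wk. Strain by age went from 0 to 1 in the CVLM with DESeq2. The 2 calls between 24 and 8 wk in WKY rats in the CVLM became 1 with the number as a term, without the libraries of conflicting age and with 1 number per age. The strain effect between the NTS and RVLM went from 1 to 0 with no filter, limma voom or without the rats of conflicting age. The cause was not tested.

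Leaving out 1 rat gave 0 to 2, 2 to 6 and 1 to 3 calls at single ages in the NTS, CVLM and RVLM, and 1, 1 to 4 and 2 to 3 for the mean over ages. Between 24 and 8 wk in WKY rats it gave 0 to 1 in the NTS and 1 to 3 in the CVLM. Leaving out a replicate number gave 9 to 10, 5 to 6 and 8 to 9 calls between regions and 0 to 1 for the strain effect between the NTS and RVLM.

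Same-numbered rats of the strains deviated together in some pairs and not in others (12, 13 and 7 of 18 correlations were above 0.1 in the NTS, CVLM and RVLM). Whether the number pairs them is not settled by this. With the replicate block, calls for the mean over ages were 1 in the CVLM and 1 in the RVLM, and calls at single ages were 1 in the NTS and 0 in the RVLM. Depth limits Rgs9 and Rgs16 in the RVLM, where libraries held as few as 5 and 12 counts.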
